A study of Mus musculus with 10 samples.

Results

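The ribosomal protein genes of the mouse were examined as a set of housekeeping promoters against which the height, the length and the tag density of H3K4me2 peaks can be read from library to library. Members were the protein-coding genes of the RefSeq annotation of GRCm38.p6 whose symbol is Rps or Rpl followed by a digit, together with Rplp0, Rplp1, Rplp2 and Rpsa, leaving out ribosomal S6 kinases, paralogues with a symbol ending in l, and Gm models. This gave 85 of the 21900 protein-coding genes, 34 named for the small (40S) subunit and 51 for the large (60S) subunit. Taken by the letter, the naming rule also admitted Rps19bp1, which encodes a binding partner of Rps19, and the paralogues Rpl7l1 and Rpl22l1, which are not core ribosomal proteins. The series compared dimethylation of histone H3 at lysine 4 (H3K4me2), profiled by chromatin immunoprecipitation and sequencing (ChIP-seq), in lymphocytes sorted from mice of the genotype Gata3-YFP/YFP, a fluorescent reporter of the transcription factor Gata3, all with airway inflammation. Naive T cells, as labelled, Th2 cells (T helper cells that make type 2 cytokines) and ILC2s (type 2 innate lymphoid cells, which make the same cytokines without an antigen receptor) gave 2 libraries each, 1 from bronchoalveolar lavage and 1 from the mediastinal lymph node. For CD4+ lymphocytes there was 1 library from spleen and 1 from thymus, with no replicate. The sort used antibodies and the reporter, and all 8 libraries used the same H3K4me2 antibody and a Nextera transposase library protocol. The labels give no sort gate for the naive T cells, no age or sex of the mice, and no statement on whether libraries came from separate animals, so p-values here measure the spread between these libraries only. Files of the 2 IgG samples, which the labels also list with the H3K4me2 antibody, were not used here.

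Ribosomal proteins coat and stabilise the ribosomal RNA of the 40S subunit, which decodes messenger RNA, and that of the 60S subunit, which joins amino acids and carries the acidic P stalk that recruits elongation factors. Their genes are transcribed strongly in nearly every growing cell from short, GC-rich promoters, and their messages begin with a run of pyrimidines, the 5′ terminal oligopyrimidine tract, through which the mTOR pathway adjusts their translation. H3K4me2 marks active and poised promoters and enhancers, with the nucleosomes that flank a start site carrying most of it. Peaks at constantly active genes can therefore serve as a yardstick of how well an immunoprecipitation worked.

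The promoter windows below show what the members share at the start site and what they do not. They are from RefSeq, GRCm38.p6, and run 5′ to 3′ on the gene's strand over 80 bases, 60 before the annotated start and 20 from it. Capitals mark the longest unbroken run of C or T within 20 bases on both sides of the start. Rpl27a, Rpl15, Rpl35, Rpl7a, Rps18 and Rps10 have a run that spans the start, Rpl13a has the tallest peak of the set and a run a few bases further in, and Rps23 and Rpl36a, among the members with the lowest peaks, have short runs. These windows do not order height by run length: Rps10 has a long run and a low peak (geometric mean 198 tags over the libraries), and Rpl12 (607 tags) and Rpl18 (569 tags) have no run from the start base.
Rpl27a: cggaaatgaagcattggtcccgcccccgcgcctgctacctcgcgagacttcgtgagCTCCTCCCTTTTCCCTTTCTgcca
Rpl15: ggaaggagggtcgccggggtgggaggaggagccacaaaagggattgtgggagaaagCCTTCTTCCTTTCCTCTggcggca
Rpl35: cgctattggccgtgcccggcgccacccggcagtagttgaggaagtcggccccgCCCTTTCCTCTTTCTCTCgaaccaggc
Rpl7a: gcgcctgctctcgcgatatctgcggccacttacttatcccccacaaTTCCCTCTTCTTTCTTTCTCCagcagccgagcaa
Rps18: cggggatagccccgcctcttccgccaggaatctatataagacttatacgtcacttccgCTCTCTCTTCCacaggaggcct
Rps10: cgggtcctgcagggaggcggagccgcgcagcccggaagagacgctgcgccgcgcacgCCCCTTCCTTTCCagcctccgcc
Rpl13a: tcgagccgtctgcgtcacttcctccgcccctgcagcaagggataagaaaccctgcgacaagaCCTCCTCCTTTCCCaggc
Rps23: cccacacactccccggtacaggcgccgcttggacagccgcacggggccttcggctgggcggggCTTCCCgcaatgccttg
Rpl36a: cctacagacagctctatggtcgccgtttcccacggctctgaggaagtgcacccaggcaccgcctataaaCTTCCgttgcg

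The windows lie at chr7:109519135-109519214 (plus strand) for Rpl27a, chr14:18270967-18271046 (minus) for Rpl15, chr2:39005112-39005191 (minus) for Rpl35, chr2:26910747-26910826 (plus) for Rpl7a, chr17:33955646-33955725 (minus) for Rps18 and chr17:27635225-27635304 (minus) for Rps10. Those of Rpl13a, Rps23 and Rpl36a lie at chr7:45128726-45128805 (minus), chr13:90923062-90923141 (plus) and chrX:134585594-134585673 (plus). The marked run is 21 bases long in Rpl7a, 20 in Rpl27a, 18 in Rpl35, 17 in Rpl15, 14 in Rpl13a, 13 in Rps10 and 11 in Rps18, against 6 in Rps23 and 5 in Rpl36a. A promoter entry existed for 64 members and for 17492 genes in all. The median longest run near the start was 7 bases in the member promoters and 5 in all promoters, and a run of 8 or more, a length chosen after the sequences were seen, was present in 28 of the 64 (43.8%) against 15.4% of all. The annotated start base was a C in 23 of the 64 (35.9%, against 13.7% of all), and 13 (20.3%, against 2.17%) began with a C followed by a run that made 5 or more pyrimidines.

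Other motifs were searched on both strands of the 300 bases from 250 before to 50 after the start. CCGGAAG, the core bound by ETS factors such as GABP, was present in 23 member promoters (35.9%) and in 11.9% of all promoters. AAGATGGC, a YY1 element, was in 6 (9.38%) and 3.21%, and GGGCGG, the GC box of Sp1, in 37 (57.8%) and 46.3%. TATAAA, the TATA box core, was in 8 (12.5%) and 13.3%, and the palindrome CACGTG, the E-box that Myc can bind, in 5 (7.81%) and 7.91%. A match describes letters in the window and is not evidence of binding.

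Across the 8 libraries, total tags ran from 11870820 to 24945548 and peaks per list from 14723 to 21985. The share of tags in peaks that the file headers give, an approximate efficiency of the immunoprecipitation, ran from 28.71% in Th2 cells of the lavage to 53.68% in naive T cells of the lymph node. Values listed below as 8 numbers follow 1 order: naive T of lavage and lymph node, Th2 of lavage and lymph node, ILC2 of lavage and lymph node, spleen CD4+ and thymus CD4+. All 8 defining T cell genes looked up had a peak in every T cell library, whereas 3 of them (Cd3e, Cd4 and Themis) had none in either ILC2 library. Of markers of other cell types, none of 6 of macrophages and neutrophils had a peak in any library, while 2 or 3 of 5 of airway epithelium did in each library, with summed levels of 0.57 to 1.56 times the median ribosomal protein peak (Epcam and Foxj1 in all 8, Scgb1a1 and Krt18 in none). B cell markers had a peak at 1 to 3 of 5 (0.50 to 4.01 times, with Cd79a in 7 libraries and Ms4a1 in none). Natural killer markers had 0 to 2 of 4 (0 to 1.30 times) and eosinophil and mast cell markers 0 or 1 of 6, at Cpa3 (0 to 1.16 times), with both Th2 libraries at 0 for these lists. The part of such cells in the results was not tested. The lavage library labelled naive T stood apart from the lymph node library of that label. Its peak at Tcf7, a transcription factor of naive T cells, was 2.36 times the median ribosomal protein peak of its library against 11.35 times in the lymph node. The summed peaks of 5 naive T cell markers were 12.96 against 35.78 times that median. Rank correlations of height over all genes with a peak in 8 libraries were 0.93 and 0.90 between the lavage naive T library and the Th2 libraries. They were 0.81 between the naive T libraries and 0.97 between the lymph node one and spleen. The lavage naive T library also had a peak at Il4 (0.71 times the median ribosomal protein peak), but none at Il13 or Il5. Tests against the naive T libraries are therefore also given without it.

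Of the 85 members, 80 (94.1%) had a peak over the gene in all 8 lists, against 46.1% of all protein-coding genes (10091). The other 5 had a peak in none: Rpl31-ps12, Rpl34-ps1, Rpl37rt, Rps23rg1 and Rps27rt, which the annotation names as retro- or pseudogene-like copies of Rpl31, Rpl34, Rpl37, Rps23 and Rps27. No member lay in between. By subunit, 32 of the 34 genes named Rps and 48 of the 51 named Rpl were marked. Marked loci were also rare among the 303 annotated ribosomal pseudogenes with a -ps symbol outside the protein-coding set: 4 (1.32%) had a peak in any library and 1 in all 8, and 2 of these 4 lay over a protein-coding gene. Reads from near-identical copies could have been dropped or assigned to either locus by the aligner, and how multiply aligned reads were handled is not given in the sources used here. Among paralogues left out by the rule, Rps27l, Rpl36al and Rpl3l had a peak in all 8 libraries, and Rpl10l, Rpl39l and Rpl32l in none.

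Ribosomal protein genes are compact, and their peaks were commonly longer than the genes. The median member spanned 3175 bp against 17146 bp for all protein-coding genes, and 50 of the 80 marked members (62.5%, against 8.0% of all genes with a peak in 8 libraries) were shorter than their own median peak. A single peak overlapped the gene in every library for 76 of the 80. The 80 members lay under 79 separate peaks, since 1 peak overlapped a pair of them. Introns of 30 members host 59 annotated small nucleolar RNA genes, which guide modification of ribosomal RNA. The widest peak also lay over another protein-coding gene in 32 members (40%, against 34.4% of all genes), so at these loci the mark cannot be assigned to the ribosomal protein gene alone.

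As a ruler of height, the set gave 8 different readings. Height is the normalized tag count of the tallest peak over the gene, in tags per 10000000 sequenced. The median over the 80 members was 265, 349, 200.4, 223, 255, 278, 300.5 and 376 tags in the 8 libraries. Both Th2 libraries were lowest and the thymus was highest, 1.88-fold above Th2 cells of the lavage. The corresponding medians of all genes with a peak were 211, 279, 167, 177, 203, 213, 243 and 304 tags, a 1.82-fold range, so the member median stayed between 1.20 and 1.30 times that of all genes in each library. By cell type the member medians averaged 307 ± 59.3 tags for naive T, 212 ± 16.2 for Th2 and 267 ± 16.1 for ILC2 libraries (SD, n = 2 libraries). The naive T libraries differed more from each other than the cell type means of ILC2s and naive T cells did. The order of the heights followed the share of tags in peaks at both ends: the Th2 libraries had 28.71% and 29.3% of tags in peaks, while lymph node naive T cells and the thymus had 53.68% and 53.27%. The Th2 libraries also had the fewest total tags, 16041895 and 11870820, and the part of either in the heights was not tested. Rescaled to tags in peaks in place of all tags, the medians became 711, 651, 698, 762, 591, 618, 680.1 and 707, a 1.29-fold range with both ILC2 libraries lowest. The plot of member values by library shows the 3 measures.

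**Figure D1:**
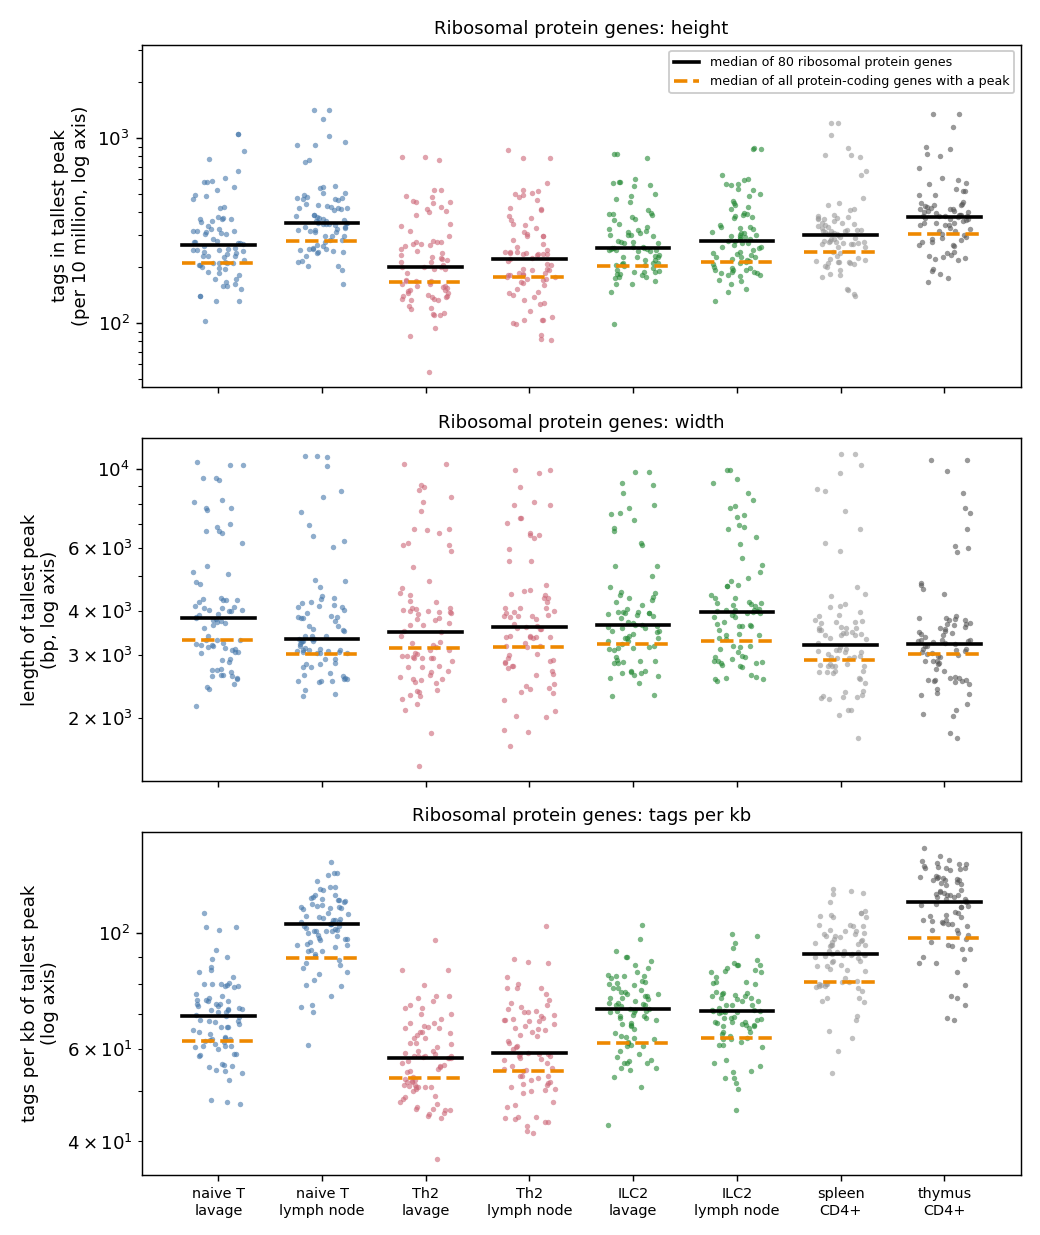
Height (tags per 10000000), length (bp) and density (tags per kb) of the tallest peak over each ribosomal protein gene with a peak, on log axes; each point is 1 gene in 1 library, black bars are the median of the 80 members and dashed bars the median of all protein-coding genes with a peak. Member medians of height run from 200.4 (Th2 lavage) to 376 (thymus), and lie above the dashed bar in all 8 libraries for all 3 measures.

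Peak length was the steadier reading. Its member median was 3808, 3329, 3492, 3589.5, 3642, 3956, 3197 and 3234 bp, a 1.24-fold range (1.14-fold for all genes). Density, the tags per kb of that peak, had medians of 69.4, 104, 57.9, 59.0, 71.6, 71.0, 91.4 and 115, a 1.99-fold range (1.85-fold for all genes). Lymph node naive T cells, spleen and thymus had the densest and the 3 shortest median peaks, and the Th2 libraries had the least dense. Within each library the members' median density was 1.08 to 1.17 times that of all genes, a smaller margin than for height, and their median length 1.07 to 1.20 times. Against the genes that have a peak in all 8 libraries, the margins were 1.11 to 1.23 for height, 1.0 to 1.11 for length and 1.07 to 1.11 for density.

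Between the sites, the naive T label was again the exception. From lavage to lymph node the density rose in 80 of 80 members in naive T cells, with a median log2 difference of 0.55, as it did in 96.4% of all genes (0.56). In Th2 cells the median log2 difference of density was 0.05 (55 of 80 higher in lymph node, 60.5% of all genes), and in ILC2s it was 0.00 (41 of 80, against 57.5%). For height the naive T difference was 0.50, with 70 of 80 members higher in lymph node (87.5%, against 87.8% of all genes). These are single libraries per site and cell type, so no test was made.

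Members differed from each other within a library, where heights ran for example from 54.2 to 787 tags in Th2 cells of the lavage. Between libraries they moved together once each library was centred on its median. The median SD of a member's centred log2 height over the 8 libraries was 0.19, against 0.26 for all genes, and 55 of the 80 (68.8%) lay below the all-gene median. The corresponding SDs were 0.12 against 0.19 for length and 0.12 against 0.14 for density. Between any pair of libraries the rank correlation of member heights was 0.70 to 0.97 (median 0.83 over 28 pairs), and for all genes 0.67 to 0.97 (0.81). These correlations run across genes of the same libraries, which are not independent replicates, and heights share peak length.

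Small and large subunit genes had similar levels. The library medians of height ran from 196 to 378 tags for the 40S genes and from 207 to 363 for the 60S genes, with the 60S median higher in 4 of the 8 libraries. Length medians ran from 3299.5 to 3979.5 bp and from 3086 to 3924 bp, again with the 60S higher in 4. Density medians ran from 57.1 to 109 and from 58.1 to 117 tags per kb, with the 60S higher in 7 of 8 by small amounts.

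Among the 40S genes, Rpsa, whose product sits at the head of the subunit and was first described as a laminin receptor precursor, had heights of 367, 418, 297, 295, 319, 339.5, 314 and 358 tags. The lymph node naive T library was highest and the Th2 libraries were lowest, and the values of the other 5 lay between 314 and 367. Rps18, a protein of the subunit head often used as a reference gene, had 587, 1272, 526, 573, 548, 556, 1042 and 891 tags over a peak of 7772 to 10812 bp that it shares with the neighbouring genes B3galt4 and Vps52. Its 3 highest values were those of lymph node naive T cells, spleen and thymus, and the other 5 lay between 526 and 587. Rps29, a small zinc finger protein of the head, had 212, 253, 159, 194, 256, 240.0, 215 and 240 tags, with the Th2 libraries lowest.

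The lowest 40S peaks by height were at Rps23, which lies at the decoding centre, and at Rps7, a gene mutated in some cases of Diamond-Blackfan anaemia. Rps23 had 140.0, 195, 112, 105, 148, 147, 144 and 191 tags, and Rps7 had 153, 255, 110.3, 80.9, 178, 152, 219 and 223. Both were lowest in the Th2 libraries, as the library medians were. Rps24, another Diamond-Blackfan anaemia gene, was among the 3 shortest peaks, with 1665 bp in Th2 cells of the lymph node and 2309 to 2640 bp in the other 7.

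Among the 60S genes, Rpl13a (chromosome 7, 45125563 to 45128745), a common reference gene, headed the ranking of height and of length. Its peak held 1055, 1427, 787, 783, 817, 870, 1208 and 1356 tags over 9853 to 11059 bp. Rpl23a, which sits at the mouth of the exit tunnel where the signal recognition particle docks, was next with 852, 915, 760, 863, 784, 881, 792 and 1147 tags over 8355 to 9778 bp. The Rpl23a peak also lies over Nek8 and Tlcd1. Density gave another order, with Rpl41, the smallest ribosomal protein, Rpl3, which reaches towards the peptidyl transferase centre, and Rpl4, which lines the exit tunnel, at the top. Rpl41 had 109, 118, 97.3, 103, 88.7, 99.8, 119.5 and 141 tags per kb.

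Rpl32, a common reference gene, had heights of 278, 432, 251, 205.5, 297, 278, 358.5 and 361 tags, between the lower and the upper quartile of the members in each library. Rpl27 had 220, 217, 168, 186, 249, 259, 203 and 231 tags, with the ILC2 libraries highest, and its peak was 3585 and 3620 bp long in ILC2s against 2041 to 3231 bp in the other 6. The member that followed the library median most closely was Rpl30, a kink-turn binding protein of the large subunit, with 275, 416, 218, 242, 301, 311, 344 and 412 tags and an SD of centred log2 height of 0.05. Rpl22l1 (SD 0.07) and Rpl35, at the tunnel exit (0.09), came next. Rpl5, which carries 5S ribosomal RNA, had one of the 3 shortest peaks (2016 to 2925 bp).

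The 3 P stalk genes differed in how steady they were. Rplp1 encodes an acidic stalk protein, and its heights of 247, 443, 200.1, 242, 311, 330.3, 338 and 438 tags followed the library medians (SD of centred log2 height 0.13). Rplp2, its partner in the stalk, had 417, 312, 342, 369, 409, 427, 258 and 304 tags, and Rplp0, the scaffold that anchors both to the subunit, had 367, 203, 135, 345, 366, 369, 152 and 167. Rplp0 was the most variable member of all (SD 0.80), followed by Rpl17 at the tunnel exit (0.64) and Rpl19, which forms a bridge between the subunits (0.53).

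At Rplp0 the height moved with the length of the called peak. The peak over Rplp0 was 7792, 2329, 2696, 7945, 7206, 7331, 1756 and 1756 bp long. In the 4 libraries with a long peak it also reached the neighbouring gene Gcn1, and in the 4 others the same interval held 2 separate peaks. Summed over all peaks in that interval, the tags were 367, 426, 266, 345, 366, 369, 342 and 391 over 4101 to 7945 bp called, a 1.60-fold range, against 2.74-fold for the tallest peak alone. The density of the Rplp0 peak was 47.2, 43.5, 50.8 and 50.4 tags per kb where it was long and 87.0, 49.9, 86.8 and 95.1 where it was short.

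A 2-fold or larger difference in length between the longest and the shortest peak was found at 12 of the 80 members (15.0%), against 29.7% of all genes, and the median ratio was 1.33 against 1.51. These 12 were chosen by their measured lengths and get no test. They included Rplp0 (4.52-fold), Rpl35a (2.91), Rpl17 (2.88), Rpl19 (2.85), Rplp2 (2.70), Rpl36 (2.49), Rpl21 (2.38), Rpl28 (2.32), Rpl7a (2.23), Rpl24 (2.11) and Rpl39 (2.02). In 9 of them every library with a short peak held 2 or more separate peaks in the interval of the longest. In the other 3, Rpl39 and Rpl24 among them, it held 1 peak that was itself shorter. The lavage naive T library had the long form at 11 of the 12 and the lymph node naive T library at 4. Long here means longer than the geometric mean of the longest and the shortest peak at that gene, which at Rpl24 separates 3854 bp from 3670 bp. The long form was found at 7 and 8 in the Th2 libraries, 7 and 8 in the ILC2 libraries, and 3 each in spleen and thymus.

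**Figure D2:**
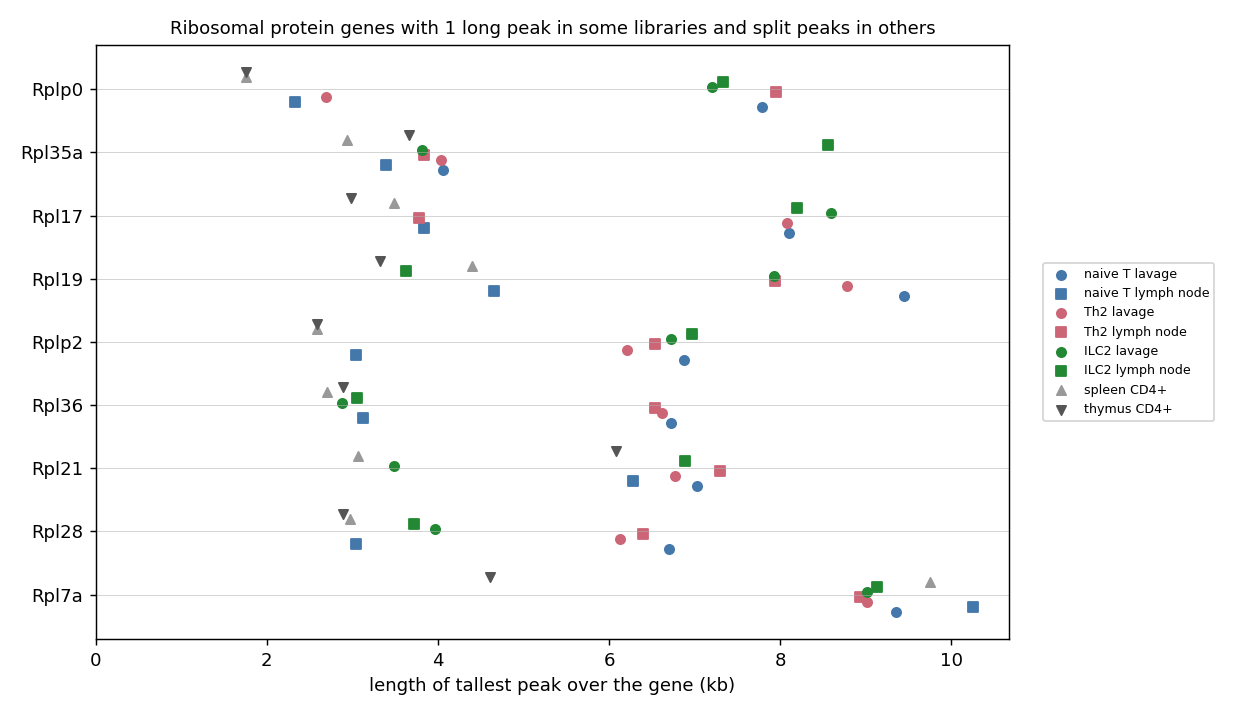
Length in kb of the tallest peak over the 9 members with 1 long peak in some libraries and 2 or more separate peaks in the same interval in the others; each point is 1 library, coloured by cell type, with circles for lavage, squares for lymph node and triangles for spleen and thymus. Rplp0 falls into a short class (1756 to 2696 bp) and a long class (7206 to 7945 bp), and the long form of Rpl36 appears in both Th2 libraries and in lavage naive T cells.

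Summing over the interval narrowed the range between libraries at 5 of the 9 loci with split peaks and widened it at 4. At Rpl17, whose long peak reaches the gene BC031181, the tallest peak ranged 2.30-fold and the summed tags 1.42-fold over 5573 to 8596 bp called. At Rpl21 the values were 1.83-fold and 1.33-fold, and at Rpl36 2.09-fold and 1.87-fold. At Rplp2 the summed range was wider, 1.88-fold against 1.65-fold. For comparison, the member median of height itself ranged 1.88-fold between libraries.

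Where the annotated start site lay in the peak, the peak reached further downstream of the start than upstream of it. Of 60 marked members with a start entry, 51 (85.0%) had the start inside the tallest peak in all 8 libraries, against 72.8% of 8232 genes. The peak extended a median 1198 bp upstream and 2278 bp downstream of the start in members, and 1323 and 1867 bp in all genes. The downstream arm was the longer one in 48 of the 51 members (94.1%), against 74.6% of all genes. In 14 of the 51 it ran past the end of the gene, as at Rpl41 and Rpl13a. The exceptions were Rpl35, Rplp2 and Rpl18, whose long arm pointed upstream. The downstream arm was 2096 bp at the median in spleen and 1993 bp in thymus and between 2209 and 2557 bp in the airway libraries. Starts that fell outside the tallest peak in 1 or more libraries included those of Rpl22 (inside in 0 of 8), Rpl7l1 (1 of 8), Rpl5 (2 of 8) and Rplp0 (4 of 8), and an entry gives only 1 start for a gene.

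**Figure D3:**
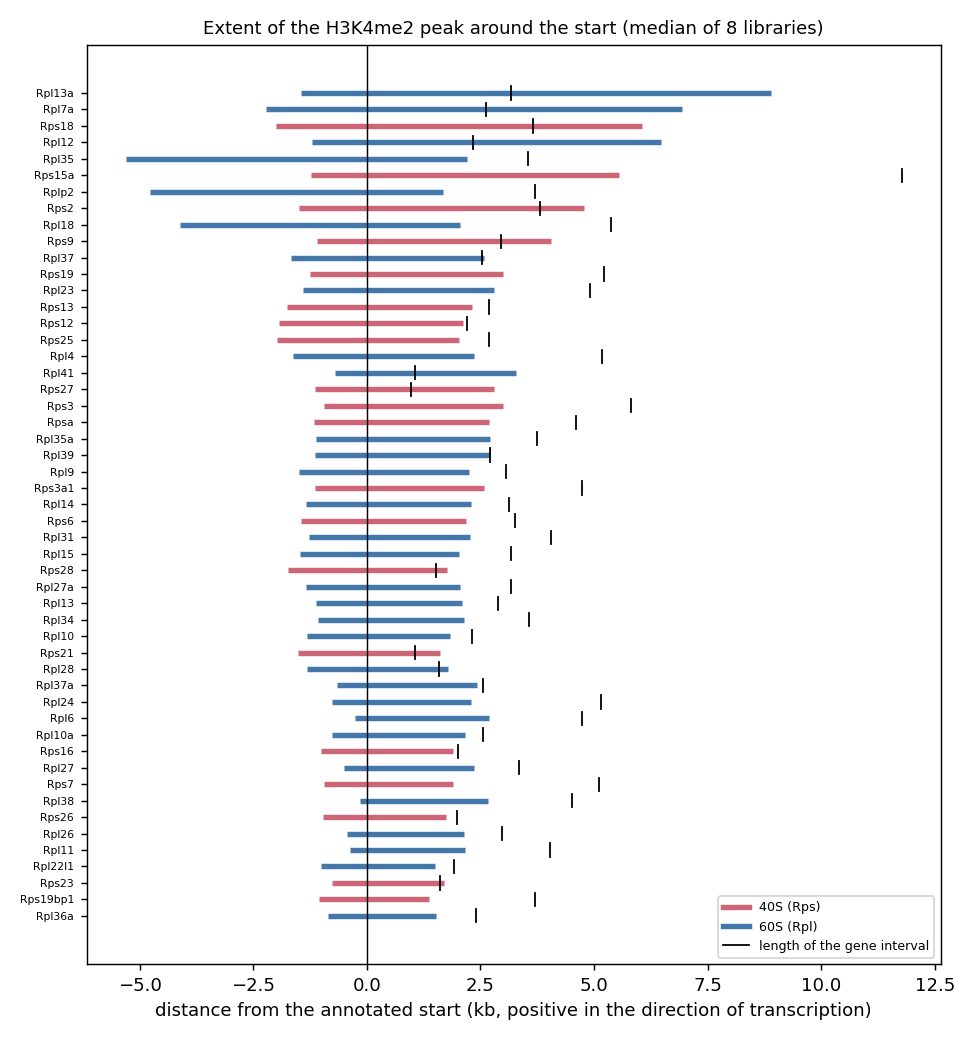
Extent of the H3K4me2 peak around the annotated start for the 51 members whose start lay in the peak in all 8 libraries; bars run from the median upstream edge to the median downstream edge over the libraries (kb), red for 40S and blue for 60S genes, and black ticks mark the length of the gene interval. The median arms are 1198 bp upstream and 2278 bp downstream, and the downstream arm is longer in 48 of the 51.

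Differences between cell types were tested with limma on log2 values of the 6 airway libraries, each centred on its median over the 10191 genes with a peak in all 6, with Benjamini-Hochberg adjustment over all of these genes and a threshold of 0.05. All 80 marked members entered, and none changed in any of the 9 combinations of 3 measures and 3 comparisons. For height, the share of all genes called was 4.09% in ILC2s against naive T cells, 0.569% in Th2 against naive T cells and 4.33% in ILC2s against Th2 cells. For length it was 3.91%, 2.56% and 5.36%, and for density 0.922%, 0% and 0.343%. At these shares of calls over all genes, a count of 0 among 80 members says little about the members.

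At an unadjusted limma p under 0.05, the members counted for height were 5 (6.25%, against 16.9% of all genes), 12 (15.0%, against 18.5%) and 15 (18.8%, against 21.9%), in the same order of comparisons. The counts were 3, 8 and 8 for length (3.75%, 10% and 10%, against 13.9%, 16.1% and 18.2%). For density they were 1, 8 and 8 (1.25%, 10% and 10%, against 12.4%, 13.3% and 13.2%). The 95% interval of the difference lay within 2-fold in both directions for 72, 68 and 69 of the 80 members in height, for 72, 70 and 70 in length, and for 80 of 80 in density in each comparison. Over all genes the shares were 74.3%, 70.7% and 71.3% in height, 77.8%, 75.4% and 75.3% in length, and 98.4%, 98.7% and 99.3% in density. For the remaining members a 2-fold difference is inside the interval. The median member difference was between -0.04 and 0.05 on the log2 scale in height and between -0.03 and 0.01 in density, beside -0.02 to 0.01 and -0.01 to 0.01 for all genes tested.

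**Figure D4:**
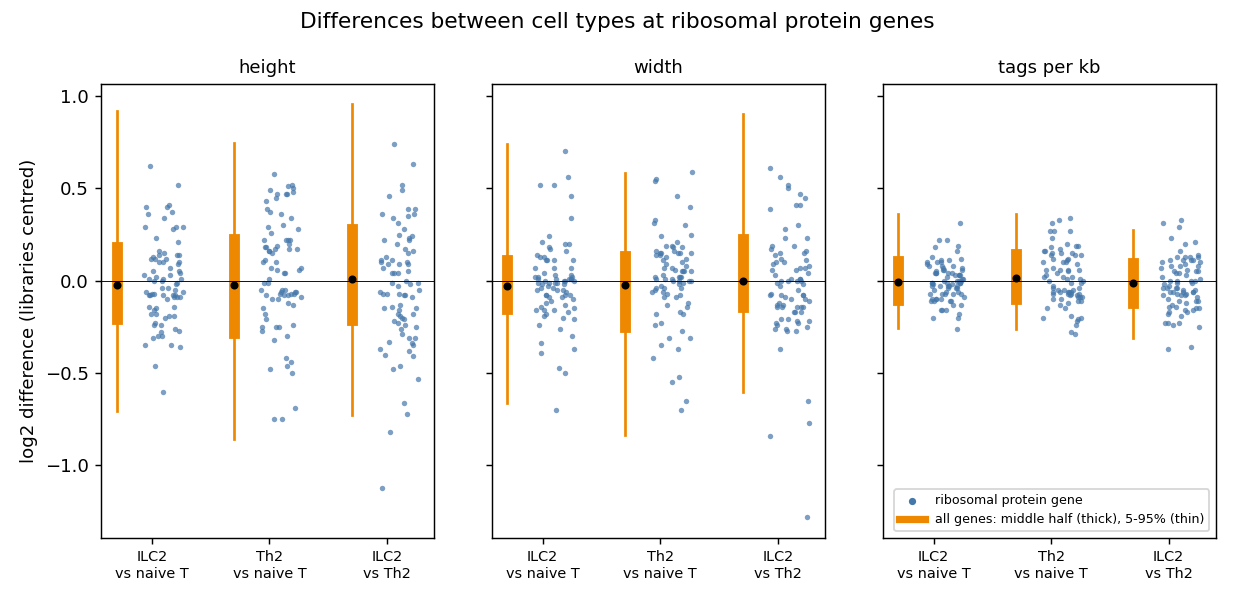
Log2 differences between cell types in height, length and density after centring each library; blue points are the 80 ribosomal protein genes, thick and thin orange bars the interquartile and the 5 to 95% range of all 10191 genes tested, with the median as a black dot. Density differences of the members stay between -0.37 and 0.34, while Rpl36 lies at -1.12 in height and -1.28 in length in ILC2s against Th2 cells without passing the test.

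The member nearest to the threshold was Rps10, in length. Rps10, a 40S protein at the messenger RNA entry side, had peaks of 3791 and 3732 bp in naive T cells, 2498 and 2420 bp in Th2 cells, 2845 and 2846 bp in ILC2s, 3581 bp in spleen and 3448 bp in thymus. The pairs of the 3 cell types did not overlap. The log2 difference in length was -0.55 in Th2 against naive T cells (SE 0.08, limma adjusted p = 0.0537) and -0.47 in ILC2s against naive T cells (SE 0.08, limma adjusted p = 0.0633). Its height was 212, 332, 114, 104, 198, 181, 278 and 292 tags, a log2 difference of -0.69 in Th2 against naive T cells (SE 0.15, limma adjusted p = 0.130).

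Rpl36, a 60S protein, had 374, 309.6, 315, 328, 178, 216, 267 and 349.9 tags. Both ILC2 values were below all others, with a log2 difference of -1.12 against Th2 cells (SE 0.26, limma adjusted p = 0.0861). Its peak was 6617 and 6537 bp long in Th2 cells, where it reached Lonp1, and 2879 and 3052 bp in ILC2s, and its density differed by 0.16 (SE 0.12, limma adjusted p = 0.599). Over the whole interval the summed tags were 315 and 328 in Th2 cells and 326 and 346 in ILC2s.

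Rpl39 had a smaller peak in both Th2 libraries than in any other. This small protein of the exit tunnel had 230, 338, 94.1, 126, 206, 209, 258 and 340.4 tags at its gene, and the Th2 values did not overlap those of any other library. The log2 difference in height of Th2 against naive T cells was -0.75 (SE 0.16, limma adjusted p = 0.124), and in density it was -0.06 (SE 0.09, limma adjusted p = 0.750). Tags in peaks were also fewest in the Th2 libraries, and the part of that in these values was not tested.

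Without the lavage naive T library some members were called, with the remaining naive T library assumed to vary like the other groups. For height these were 3 members in ILC2s against naive T cells (11.3% of all genes called), 6 in Th2 against naive T cells (17.3%) and 2 in ILC2s against Th2 cells (10.6%). By the tallest peak, Rplp2 was then higher in Th2 cells (log2 difference 1.02) and in ILC2s (0.85) than in the naive T library. That naive T library held 2 peaks in the interval of the longest, with 500.5 summed tags before centring. The Th2 libraries held 342 and 369 there, and the ILC2 libraries 409 and 427, in 1 peak each. Summed over the interval of the longest peak, Rpl28 held 276 and 297 tags in Th2 cells and 329.5 and 362 in ILC2s before centring. By the tallest peak alone, Rpl36 and Rpl28 were called lower in ILC2s than in Th2 cells, with log2 differences of -1.12 and -0.72. Both differences were the same without the lymph node naive T library, as they come from the same Th2 and ILC2 libraries. That setting is therefore no separate check of them. Without the lymph node naive T library, 1 member (Rpl36) was called in ILC2s against naive T cells (5.37% of all genes) and none in Th2 against naive T cells (0.186%).

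Length and density gave the same kind of dependence on the naive T libraries. Without the lavage one, the members called in length were 2 in ILC2s against naive T cells (Rplp2 longer and Rps18 shorter, 9.46% of all genes called), 4 in Th2 against naive T cells (Rplp2, Rpl36 and Rpl28 longer and Rps10 shorter, 11.8%) and 2 in ILC2s against Th2 cells (Rpl36 and Rpl28 shorter, 8.28%). In density they were 0 (11.0%), 6 (17.8%) and 1 (Rpl34, 3.55%), in the same order, and Rpl41 was the member with the largest of these density differences (0.57 in Th2 against naive T cells, SE 0.10, limma adjusted p = 0.0120). Without the lymph node one, they were 2 (4.69%), 0 (1.42%) and 2 (8.38%) in length and 0 (1.32%), 0 (0.0196%) and 1 (3.76%) in density. Rps10 crossed the threshold in length under other settings too. It was called in Th2 against naive T cells without centring (log2 difference -0.61, SE 0.08, limma adjusted p = 0.0308, with 2.63% of all genes called lower). It was also called in ILC2s against naive T cells when only peaks of at least 80 tags were kept (-0.48, SE 0.08, limma adjusted p = 0.0493, with 1.58% called lower). Without centring, 5 members were called lower in height (10.4% of all genes) and 8 in density (13.2%) in Th2 against naive T cells.

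The 3 members of lowest density, Rpl36a, Rpl10 and Rpl39, are all on the X chromosome, which was noticed after the values were seen. Rpl36a, a 60S protein, had 47.5, 61.2, 37.0, 50, 43.0, 46.0, 59.5 and 68.2 tags per kb, and with 102, 163, 54.2, 100.2, 99.0, 131, 140.3 and 174 tags it was also the lowest peak of the set by mean log2 height. Rpl10, which completes the 60S subunit before it can join the 40S, had 62.4, 70.6, 46.1, 57.2, 56.6, 54.6, 54.0 and 72.8 tags per kb. The other X-linked member is Rps4x, a 40S protein. The median density of the 4 X-linked members was 0.61 to 0.80 times that of the autosomal members in the 8 libraries. X-linked genes as a whole behaved alike: the median density of 159 X-linked genes with a peak in all 8 libraries was 0.70 to 0.82 times that of 9932 autosomal genes, and their median height 0.53 to 0.65 times. The sex of the mice is not given in the labels.

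Other genes of the translation machinery gave levels on both sides of the ribosomal protein genes. Genes of mitochondrial ribosomal proteins (78, of which 76 were tested) had library medians of height 0.71 to 0.83 times those of the cytoplasmic set. Those of 27 ribosome biogenesis genes were 0.84 to 1.06 times, of 33 translation factor genes 1.05 to 1.23 times, and of 16 other reference genes 1.35 to 1.74 times. In the same limma fits, single genes of these lists passed the threshold for height, at shares below the 4.09% (ILC2s against naive T cells) and 4.33% (ILC2s against Th2 cells) of all genes. Mrps6 and Mrpl58, of the mitochondrial ribosome, were lower in ILC2s than in naive T cells in height, with log2 differences of -1.10 (SE 0.15, limma adjusted p = 0.0252) and -0.90 (SE 0.13, limma adjusted p = 0.0284), 2 of 76 tested (2.63%). Without the lavage naive T library these were -1.14 (SE 0.18, limma adjusted p = 0.0304) and -0.97 (SE 0.13, limma adjusted p = 0.0220), and Mrps6 was not called without the lymph node one (limma adjusted p = 0.0543). The naive T libraries held 344 and 500.5 tags at Mrps6 and the ILC2 libraries 171 and 169.

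Of the 27 biogenesis genes, Bysl, a 40S assembly factor, was lower in ILC2s than in the naive T libraries (log2 difference -1.23, SE 0.22, limma adjusted p = 0.0482), and Dkc1, the X-linked pseudouridine synthase of the nucleolus, was higher in ILC2s than in Th2 cells (1.53, SE 0.17, limma adjusted p = 0.0148). Each is 1 of 27 (3.70%). The Bysl difference did not pass without the lavage naive T library (-1.27, SE 0.28) or without the lymph node one (-1.20, SE 0.28). The Dkc1 difference was 1.53 without either naive T library, as it comes from the same ILC2 and Th2 libraries. Those settings are therefore no separate check of Dkc1. The Bysl peak was 9484 and 9826 bp long in naive T, 8920 and 3775 bp in Th2 and 4006 and 3904 bp in ILC2 libraries. The part of peak length in its height was not tested. The Dkc1 peak held 144 and 263 tags in naive T, 61.7 and 58.1 in Th2 and 218 and 242 in ILC2 libraries. Its length was 2791 and 3367, 1503 and 1346, and 3900 and 3957 bp in the same order. Of the 32 translation factors tested, 1 (3.12%) was called: Eif5a was lower in ILC2s than in Th2 cells (-1.07, SE 0.20, limma adjusted p = 0.0495), with a peak of 10388 and 10927 bp in Th2 cells against 5223 and 5605 bp in ILC2s. In the fit of all airway libraries, no gene of the 15 other reference genes tested was called for height. That result does not extend to the fit without the lavage naive T library, which leaves 1 naive T library. In that fit the median log2 difference of these reference genes against naive T cells was 0.12 in ILC2s and 0.24 in Th2 cells. Over all genes tested in that setting it was -0.04 and -0.03. The median log2 difference of translation factors in Th2 against naive T cells was 0.20 (0.25 without the lavage naive T library), beside 0.05 for the ribosomal protein genes and -0.02 for all genes tested.

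Read against the ribosomal protein median of the same library, several lineage genes differed between the cell types, while others differed little. Gata3, the reporter gene and the master regulator of type 2 lymphocytes, stood at 5.58, 5.29, 10.44, 10.44, 13.55, 11.73, 5.57 and 4.65 times the member median. The Th2 and ILC2 libraries were all above the other 4. Cd3e, a chain of the T cell receptor complex, stood between 2.27 and 2.81 times in the 6 T cell libraries and had no peak in ILC2s. Of the 8 T cell genes looked up, 5 had a peak in both ILC2 libraries. Zap70, of that list, stood at 4.06 and 3.30 times in ILC2s and between 2.85 and 5.03 times in the T cell libraries. Rora, an ILC2 transcription factor, stood at 22.66 and 21.22 times in ILC2s and between 0.95 and 4.91 times elsewhere. Id2, of the same list of ILC2 markers, differed less, at 4.55 and 4.12 times in ILC2s and between 2.14 and 3.98 times elsewhere. Il1rl1, the IL-33 receptor gene, stood at 11.74 and 10.40 times in ILC2s, 7.55 and 4.88 in Th2 cells, 3.46 in lavage and 0.52 in lymph node naive T cells, 1.01 in spleen and 0.12 in thymus.

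**Figure D5:**
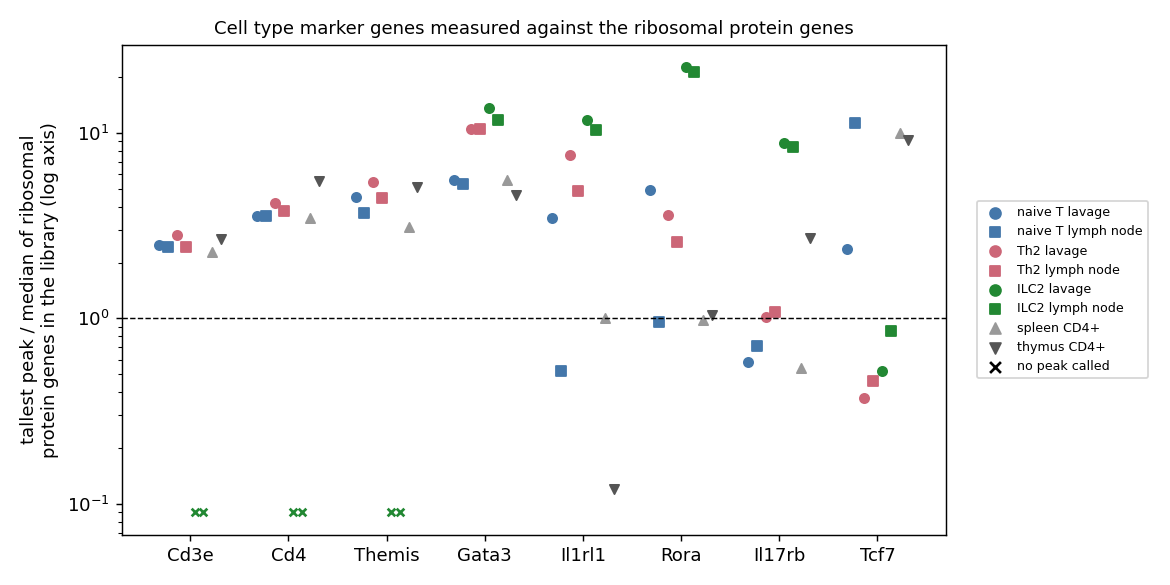
Tallest peak over 8 cell type marker genes divided by the median height of the ribosomal protein genes of the same library (log axis); symbols and colours are libraries, crosses mark genes with no peak called and the dashed line marks the ribosomal protein median. Cd3e, Cd4 and Themis have no peak in either ILC2 library, Gata3 is highest in Th2 cells and ILC2s, and Tcf7 is 2.36 in lavage and 11.35 in lymph node naive T cells. The other 5 T cell genes looked up had a peak in both ILC2 libraries and are not shown.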

How the data were processed

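H3K4me2 ChIP-seq peak lists of 8 libraries were used, 6 of them from 3 airway cell types. Reads were aligned to mm10 with Bowtie, per the submitters' processing notes, and peaks were called by the authors with HOMER in each library separately, per the file headers (peak size 1000 bp, minimum distance 2500 bp, at most 1 tag per bp, false discovery rate 0.001, 4-fold excess over IgG). The versions are not given in the sources used here. The deposited signal is a normalized tag count per 10000000 tags, and the deposited fold over IgG (a ratio) was used only to see that every member peak exceeded the required fold. A called peak can join neighbouring sites, which affects height and length together. Tag counts per peak are not raw counts, so no counting interval is given.

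For each gene interval of RefSeq (GRCm38.p6, the coordinates of mm10) the tallest overlapping peak gave height, length and tags per kb. Log2 values, with no pseudocount as every value is above 0, were tested with limma 3.58.1 in R 4.3.3 (cell type as the only term), and other steps ran in Python 3.11.15 with pandas 2.3.3, numpy 2.4.6 and matplotlib 3.10.9. Tested on simulated data for height in ILC2s against naive T cells (10191 genes, 200 changed), the fit called 21% of 100 changes of 1 and 76% of 100 changes of 2 on the log2 scale, with 0 false calls. The simulated noise was independent and of equal spread in all groups, as the fit assumes. In the data the naive T pair was less alike, with a rank correlation over all genes of 0.81, against 0.93 for Th2 and 0.96 for ILC2 libraries. The simulation therefore does not cover unequal spread. The members, gene lists and markers were chosen with earlier results of these data known. Named members are 10 reference genes, the 3 highest and lowest for each measure, the 3 most and least variable in height, those without a peak, those kept by the letter of the naming rule, and any called (none). Alternatives were other centring, a site block, peaks of at least 80 tags, gene intervals widened by 1 kb, an overlap of at least 200 bp, summed peaks, tags scaled to tags in peaks, the set without the 3 non-ribosomal members, and leaving out each library. Values of a few genes are not reported here.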

Additional observations from a re-analysis of the deposited data

How the results depend on the processing

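With 2 libraries per airway cell type from different sites, only large differences could be called. Of 72 alternative counts of members called outside leave-one-out, 68 stayed at 0. Without centring, Th2 against naive T cells gave 5 members in height (all lower, among 10.4% of all genes lower), 8 in density (13.2%) and 1 in length (Rps10, 2.63%), while the median of all genes moved to -0.62 in height and -0.51 in density, which the construction of that setting carries. With peaks of at least 80 tags, 1 member was called in length in ILC2s against naive T cells (Rps10, limma adjusted p = 0.0493, 1.58% of all genes lower). Members called on leaving out 1 library ran, for ILC2s against naive T, Th2 against naive T and ILC2s against Th2 cells, from 0 to 3, 0 to 6 and 0 to 2 in height, 0 to 2, 0 to 4 and 0 to 2 in length, and 0 to 0, 0 to 6 and 0 to 1 in density.

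The counts over all genes, which set the background, moved more. In the same order of comparisons they ran on leaving out 1 library from 24 to 1151, 0 to 1771 and 3 to 1096 in height, 0 to 966, 0 to 1201 and 0 to 857 in length, and 1 to 1126, 0 to 1817 and 1 to 385 in density. The highest of these came without 1 of the naive T libraries. Without centring, height in Th2 against naive T cells gave 1113 genes (55 higher, 1058 lower, against 31 and 27 with centring and 24 and 10, 34 in all, centred on the members). Height in ILC2s against Th2 cells gave 729 (628 and 101, against 286 and 155). Density gave 19 (0 and 19, against 63 and 31) in ILC2s against naive T, 1350 in Th2 against naive T and 21 (20 and 1, against 19 and 16) in ILC2s against Th2 cells. Length gave 73 higher and 268 lower in Th2 against naive T cells (89 and 172 with centring) and 603 and 138 in ILC2s against Th2 cells (388 and 158). Peaks of at least 80 tags gave 103 and 357 genes in length in Th2 against naive T and ILC2s against Th2 cells, and summed peaks gave 61 in density in ILC2s against naive T cells. The causes were not tested. Scaled to tags in peaks, the member medians of height were 711, 651, 698, 762, 591, 618, 680.1 and 707.

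The replicate number stands for the site in the labels, so libraries of the same number share a site. They did not deviate together throughout (correlations of -0.0833 to 0.185 across 10191 genes). These correlations run across genes and cannot show whether the libraries are paired beyond the site. With the replicate block, 255, 0 and 267 genes were called in height and 257, 0 and 332 in length in the 3 comparisons, and still 0 members in any of the 9 tests.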
